A study of Mus musculus with 4 samples.

Results

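A set of 10 transcripts that lung macrophages carry, among them 2 of lipid uptake, was followed in 4 libraries of group 2 innate lymphoid cells (ILC2s) from mouse lung. The 10 genes are Mmp12, Chil3, Gpnmb, Lpl, Cd36, Ccl6, Ccl9, Clec4n, Itgax and Lyz2, of 17187 genes in the table. They were taken by name, and the names had been picked because these transcripts were near absent in the isotype libraries. The contrast between the groups therefore chose the genes, so its values are given as a description, without a test. The choice had no numeric threshold.

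ILC2s lack an antigen receptor and answer epithelial alarm cytokines with IL-5 and IL-13. Per the labels, sorted ILC2s from lungs of BALB/c mice were cultured for 18 hours with an antibody to the costimulatory receptor CD226 (2 libraries), or with an isotype control antibody (2 libraries). The labels name 5 µg/mL in a form that may or may not cover the isotype antibody. The series' design text calls the donors wild type and speaks of treated mice, and the deposited table names the controls PBS. Groups follow the treatment label of each sample. The sources used here give neither the age of the mice nor the gate and purity of the sort. Separate mice or cultures behind the duplicates are not stated, so the spread within a group, and any p-value built on it, may be technical.

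Macrophages of the airspaces live on surfactant, a lipid film that they take up and degrade. Lipoprotein lipase cuts fatty acids from triglycerides, and the scavenger receptor CD36 carries fatty acids and oxidised lipoproteins into the cell. Macrophages of inflamed lung also secrete the elastase MMP12 and the chitinase-like lectin Chil3 (Ym1). In a culture of sorted lymphocytes such transcripts are few, and fewer cells of a type cannot be told apart from less RNA per cell in these bulk libraries.

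Of the 10 genes, 4 hold an AP-1 element near a transcription start, and their windows are shown with that of Chil3, the gene that behaved most unlike the others. The windows come from RefSeq on GRCm38.p6, the assembly that mm10 denotes, and run from 250 bases before a start to 50 bases after it. Capitals mark TGANTCA, the element bound by FOS and JUN dimers, read 5′ to 3′ along the gene. It is its own reverse complement, so a match counts on both strands.
Mmp12 promoter, chr9:7347124-7347423, plus strand: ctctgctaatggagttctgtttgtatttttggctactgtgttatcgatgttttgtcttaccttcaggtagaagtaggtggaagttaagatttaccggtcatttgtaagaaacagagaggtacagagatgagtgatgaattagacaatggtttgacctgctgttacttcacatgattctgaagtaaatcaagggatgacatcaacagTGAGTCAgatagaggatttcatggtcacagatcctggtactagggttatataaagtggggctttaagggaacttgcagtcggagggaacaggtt
Gpnmb promoter, chr6:49036268-49036567, plus strand: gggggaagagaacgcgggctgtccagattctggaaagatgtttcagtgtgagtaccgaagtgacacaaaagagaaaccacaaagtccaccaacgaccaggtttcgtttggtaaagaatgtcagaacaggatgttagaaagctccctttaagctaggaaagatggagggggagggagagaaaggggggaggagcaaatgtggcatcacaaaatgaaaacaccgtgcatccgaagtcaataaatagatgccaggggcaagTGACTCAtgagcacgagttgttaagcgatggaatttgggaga
Ccl9 promoter, chr11:83578587-83578886, minus strand: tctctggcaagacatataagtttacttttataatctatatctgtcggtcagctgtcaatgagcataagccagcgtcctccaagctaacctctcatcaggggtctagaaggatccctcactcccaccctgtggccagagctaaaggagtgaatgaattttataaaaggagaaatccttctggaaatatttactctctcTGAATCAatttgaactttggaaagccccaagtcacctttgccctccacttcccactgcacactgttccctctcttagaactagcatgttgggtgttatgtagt
Itgax promoter, chr7:128129300-128129599, plus strand: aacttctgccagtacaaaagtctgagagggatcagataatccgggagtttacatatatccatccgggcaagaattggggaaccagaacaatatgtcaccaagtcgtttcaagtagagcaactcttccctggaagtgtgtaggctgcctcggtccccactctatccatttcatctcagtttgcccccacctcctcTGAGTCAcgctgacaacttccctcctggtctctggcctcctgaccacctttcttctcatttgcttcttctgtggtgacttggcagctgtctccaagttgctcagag
Chil3 promoter, chr3:106167515-106167814, minus strand: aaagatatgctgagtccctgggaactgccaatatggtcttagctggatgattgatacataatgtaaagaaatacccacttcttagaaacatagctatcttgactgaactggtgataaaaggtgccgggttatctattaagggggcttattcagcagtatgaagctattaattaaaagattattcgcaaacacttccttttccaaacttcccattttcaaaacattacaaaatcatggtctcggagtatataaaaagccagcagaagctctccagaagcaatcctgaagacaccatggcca
Mmp12 has windows at 2 starts, and the one shown holds the element, which begins 44 bases before that start, 56 in Itgax and 53 in Ccl9, and lies downstream of the start in Gpnmb. Windows were found for 8 of the 10 genes, 9 windows in all, and 4 held the element, against 7.81% of all 32851 windows. The PU box GAGGAA stood in 1 of the 9 windows, against 28.3% of all. TATAAA stood in 3, against 13.6% of all, and in no case overlapped the AP-1 element. The E-box CATGTG and the C/EBP element TTGCNNAA stood in 1 window each, against 14.2% and 10.8% of all. The PPAR element, a direct repeat of the nuclear receptor site spaced by 1 base, was in none of the 9, and 0.0396% of all windows held it. These are matches of letters in short windows and carry no statement about binding.

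Values are the authors' normalised signal, called normalised reads here. In each library the low values were spaced by a step taken as the worth of 1 read, and all 40 values of the 10 genes were whole numbers of such reads (within 0.02 of a read), as were 73.5% to 75.1% of the values checked per library. Estimated depth was 13521355 and 12474115 reads in anti-CD226 replicates 1 and 2, and 12433653 and 17847246 reads in isotype replicates 1 and 2. A value of 0 allows up to 3 reads, which is 3.32 normalised reads or less in every library. All intervals and these limits cover counting error only, since reads of an amplified library are not independent molecules. Anti-CD226 replicate 2 stood apart from the rest over the 13010 genes with a mean of 10 or more. Across these genes, which are no independent replicates, its Pearson's r with the other libraries was 0.968 to 0.977, while those had 0.986 to 0.987 among themselves. The share of signal from ribosomal protein genes was 2.996% and 1.70% in anti-CD226 replicates 1 and 2, against 2.57% and 3.15% in isotype replicates 1 and 2. Whether this bears on the 10 genes was not tested.

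The summed signal of the 10 genes was small in every library and differed widely between libraries of the same group. It was 466 and 2141 normalised reads in anti-CD226 replicates 1 and 2, against 109 and 12.4 in isotype replicates 1 and 2. The libraries kept this order, from anti-CD226 replicate 2 through anti-CD226 replicate 1 and isotype replicate 1 down to isotype replicate 2, also without Chil3, with sums of 450 and 1358 against 89.5 and 12.4. The mean of the sums was 21.4 times higher in anti-CD226 libraries, 7.66 times without anti-CD226 replicate 2 and 105 times without isotype replicate 1. Each of the 10 genes was highest in anti-CD226 replicate 2, and 9 of 10 were lower in isotype replicate 2 than in isotype replicate 1.

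In 9 of the 10 genes both anti-CD226 libraries stood above both isotype libraries, and Chil3 was the exception. Over all 13010 genes tested, 13.8% stood above in this way. The names were picked on this contrast, so nothing is read from the 9. All 10 genes reached the mean of 10, and 8 of them had an isotype mean below 10, so they passed only through their anti-CD226 values. Limma called 0 of the 13010 genes, 0% in each direction, at an adjusted p of 0.05. At an unadjusted p below 0.05 it found 308 genes, 202 higher and 106 lower, and the smallest adjusted p was 0.98. Its count was 1680 and 63 without anti-CD226 replicates 1 and 2, and 13 and 15 without isotype replicates 1 and 2.

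**Figure D1:**
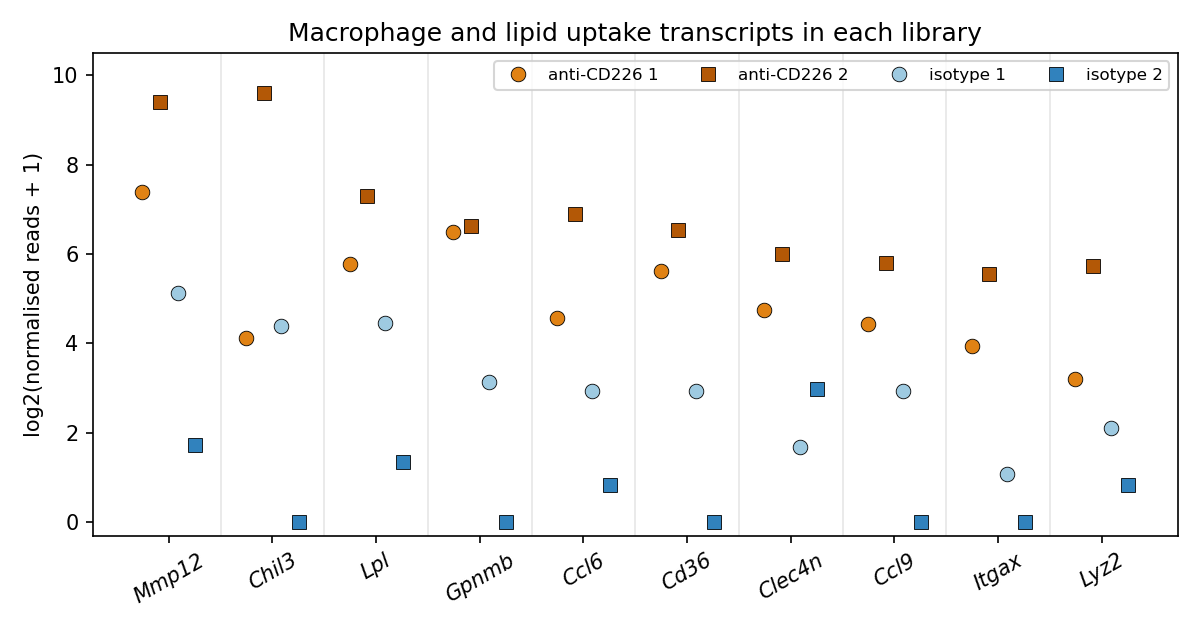
Each point is 1 library, with log2(normalised reads + 1) on the y axis and the 10 genes on the x axis in order of their anti-CD226 mean. The anti-CD226 points lie above the isotype points in 9 genes, while Chil3 in anti-CD226 replicate 1 (16.5) lies just under isotype replicate 1 (19.9).

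Among the secreted proteins are the elastase Mmp12, the lectin Chil3 and the lysozyme Lyz2. Mmp12 (GRCm38 chromosome 9, 7344381 to 7369499, plus strand), which degrades elastin in the lung matrix, had 168 and 678 normalised reads in anti-CD226 replicates 1 and 2, against 34.3 and 2.32 in isotype replicates 1 and 2. The groups did not overlap, and the lower anti-CD226 library exceeded the higher isotype library by 134 normalised reads. On the log2(value + 1) scale used throughout, it was higher by 4.97 (SE 1.04).

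Chil3 (chromosome 3, 106147554 to 106167564, minus strand), the chitinase-like lectin Ym1, had 16.5 and 784 normalised reads in anti-CD226 replicates 1 and 2, against 19.9 and 0 in isotype replicates 1 and 2. Its groups overlapped, and its high anti-CD226 mean rests on replicate 2 alone. Without that library the difference is 16.5 against an isotype mean of 9.95 ± 14.1 (SD, n = 2). Chil4, its near-identical neighbour, had 0 and 0 in the anti-CD226 libraries and 2.21 and 6.95 in the isotype libraries. How reads common to both were counted is not given in the sources used here.

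Lyz2 (chromosome 10, 117277331 to 117282321, minus strand), the lysozyme of macrophages, had 8.24 and 51.8 normalised reads in anti-CD226 replicates 1 and 2, against 3.32 and 0.773 in isotype replicates 1 and 2. These isotype values are 3 reads and 1 read. The gap between the groups, 4.92 normalised reads, was the smallest of the 9 genes that did not overlap. Its close copy Lyz1 was not analysed here.

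Among the lipid uptake genes Cd36 and Lpl, Cd36 was nearer to absent in the isotype libraries. Cd36 (chromosome 5, 17781690 to 17888801, minus strand), the fatty acid translocase, had 48.4 and 91.5 normalised reads in anti-CD226 replicates 1 and 2, against 6.63 and 0 in isotype replicates 1 and 2. Lpl (chromosome 8, 68880491 to 68907448, plus strand), lipoprotein lipase, had 53.5 and 155 normalised reads in anti-CD226 replicates 1 and 2, against 20.996 and 1.55 in isotype replicates 1 and 2. Neither gene overlapped between the groups. The log2 fold change of Cd36 was 4.61 (SE 0.94) and that of Lpl 3.63 (SE 0.96).

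Gpnmb was the steadiest of the 10 between the anti-CD226 libraries. Gpnmb (chromosome 6, 49036546 to 49070929, plus strand), a transmembrane glycoprotein of lysosome-rich and lipid-laden macrophages, had 88.5 and 98.1 normalised reads in anti-CD226 replicates 1 and 2, against 7.74 and 0 in isotype replicates 1 and 2. Its anti-CD226 mean was 93.3 ± 6.75, against 3.87 ± 5.47 in isotype libraries (SD, n = 2 each).

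The chemokine genes Ccl6 and Ccl9 lie side by side on chromosome 11 and encode related ligands of the receptor CCR1. Ccl6 (83587882 to 83593087, minus strand) had 22.7 and 119 normalised reads in anti-CD226 replicates 1 and 2, against 6.63 and 0.773 in isotype replicates 1 and 2. Ccl9 (83572919 to 83578636, minus strand) had 20.6 and 55.1 normalised reads in anti-CD226 replicates 1 and 2, against 6.63 and 0 in isotype replicates 1 and 2. The groups did not overlap for either. Ccr1 itself was present at 576 and 483 normalised reads in anti-CD226 libraries and at 495 and 624 in isotype libraries, and these overlapped. Other CC chemokine genes had no common direction. Ccl3 was at 3.09 and 24.2 in anti-CD226 libraries against 0 and 0.773 in isotype libraries, and Ccl4 at 7.21 and 4.41 against 0 and 0. Ccl2 was at 0 and 2.20 in anti-CD226 libraries against 16.6 and 0 in isotype libraries, and Ccl5 at 40.2 and 41.9 against 19.9 and 64.1, both named after their values were seen.

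Surface receptors completed the group. Clec4n (chromosome 6, 123229843 to 123247021, plus strand), the fungal mannan receptor dectin-2, had 25.7 and 62.8 normalised reads in anti-CD226 replicates 1 and 2, against 2.21 and 6.95 in isotype replicates 1 and 2. It was the only one of the 10 genes with more signal in isotype replicate 2 than in isotype replicate 1, on 9 reads and 2 reads. Itgax (chromosome 7, 128129547 to 128150657, plus strand), the integrin chain CD11c of alveolar macrophages and dendritic cells, had 14.4 and 46.3 normalised reads in anti-CD226 replicates 1 and 2, against 1.11 and 0 in isotype replicates 1 and 2. The isotype libraries together held 1 read of Itgax and the anti-CD226 libraries 56. Itgam, the CD11b chain of the same integrin family, had 19.6 and 18.7 in anti-CD226 libraries against 1.11 and 0 in isotype libraries. Their common partner Itgb2, used by lymphocytes too, had 5927 and 6442 against 6400 and 6089.

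Per kilobase of the longest annotated transcript, the order of levels differed between the anti-CD226 libraries. In replicate 2 Chil3 led with 509 normalised reads per kilobase, followed by Mmp12 with 188, Ccl6 with 82.7 and Clec4n with 51.1, and Itgax was last with 11.4. In replicate 1 Mmp12 led with 46.5 normalised reads per kilobase, followed by Gpnmb with 23.9, Clec4n with 20.9 and Ccl6 with 15.7, and Chil3 was seventh with 10.7. Neighbours such as Gpnmb and Clec4n in replicate 1, on 86 reads and 25 reads, stand close in this order. In isotype replicate 1 Chil3 had 12.9 and Mmp12 9.50 normalised reads per kilobase, on 18 reads and 31 reads.

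The ratios between genes show that the group did not scale as a unit. Ratios below are of normalised reads, not per length, so only the same ratio in different libraries can be compared. Chil3 over Mmp12 was 0.0982 and 1.16 in anti-CD226 replicates 1 and 2, against 0.581 in isotype replicate 1 and 0 in isotype replicate 2. The ratio was thus 11.8 times higher in anti-CD226 replicate 2 than in replicate 1, with isotype replicate 1 between them. Gpnmb over Mmp12 ran the other way, with 0.528 and 0.145 in anti-CD226 replicates 1 and 2, against 0.226 in isotype replicate 1. The largest disparity was Chil3 over Gpnmb, with 0.186 and 7.99 in anti-CD226 replicates 1 and 2, against 2.57 in isotype replicate 1.

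Other ratios held better. Ccl6 over Mmp12 was 0.135 and 0.176 in anti-CD226 replicates 1 and 2, against 0.194 in isotype replicate 1. Itgax over Mmp12 was 0.0859 and 0.0683 in the anti-CD226 libraries, against 0.0323 in isotype replicate 1 on 1 read of Itgax. Lpl over Cd36 was 1.11 and 1.70 in the anti-CD226 libraries, against 3.17 in isotype replicate 1. Of the 45 pairs of genes, the ratio differed between the anti-CD226 libraries by up to 2-fold in 22 pairs, by 2-fold to 6-fold in 14 and by more than 6-fold in 9. All 9 of these involve Chil3, and the largest disparity among the 36 pairs without Chil3 was 5.68-fold.

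**Figure D2:**
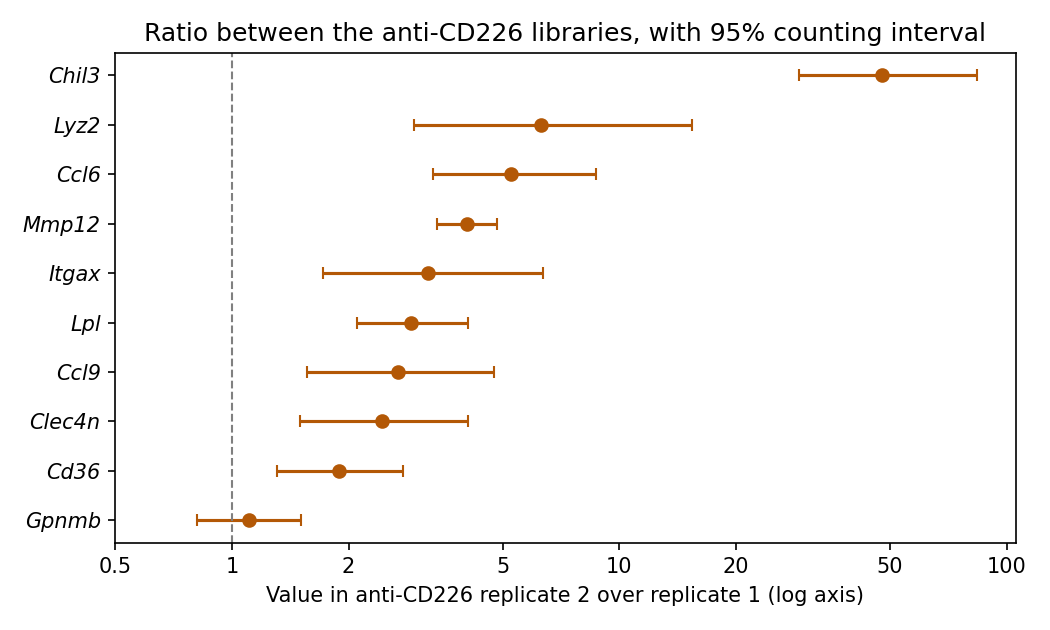
Each row is a gene, and the x axis (log scale) gives its value in anti-CD226 replicate 2 over replicate 1, with the exact 95% counting interval as a bar. Gpnmb spans 1 with 1.11 (0.814 to 1.51), most genes lie between 2 and 7, and Chil3 stands alone at 47.6 (29.1 to 83.7).

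Gene by gene, anti-CD226 replicate 2 had between 1.11 and 47.6 times the value of replicate 1, with a median of 3.06. Mmp12 had 4.04 times (exact 95% counting interval 3.39 to 4.83) and Cd36 1.89 times (1.31 to 2.76). The interval of Chil3 overlapped none of the others, and that of Gpnmb was the only one to include 1. Between anti-CD226 replicate 1 and isotype replicate 1 the genes were ordered differently. Gpnmb was 11.4 times higher (5.32 to 29.3) and Cd36 7.30 times (3.11 to 20.9), while Mmp12 was 4.90 times higher (3.32 to 7.44) and Lpl 2.55 times (1.48 to 4.57). Chil3 stood at 0.828 times (0.395 to 1.72), and Lyz2 at 2.48 times (0.596 to 14.5). These ratios compare single libraries of the contrast on which the genes were picked, so their intervals describe counting error and test nothing.

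As shares of the reads of the 10 genes, Mmp12 was close in the anti-CD226 libraries and isotype replicate 1, and Chil3 was not. A share depends on the other genes, and Chil3 enlarged the total in anti-CD226 replicate 2. Mmp12 over Gpnmb was 1.90 and 6.91 in anti-CD226 replicates 1 and 2, and Mmp12 over Ccl6 was 7.41 and 5.69. Mmp12 made up 36.0% (Clopper-Pearson 95% interval 31.6% to 40.6%) in anti-CD226 replicate 1 and 31.7% (29.6% to 33.8%) in its duplicate, against 31.3% (22.4% to 41.4%) in isotype replicate 1. Chil3 made up 3.53% (2.03% to 5.67%) in anti-CD226 replicate 1 and 36.6% (34.4% to 38.8%) in replicate 2, against 18.2% (11.1% to 27.2%) in isotype replicate 1. Gpnmb made up 19.0% (15.5% to 22.9%) in anti-CD226 replicate 1 and 4.58% (3.69% to 5.61%) in replicate 2, against 7.07% (2.89% to 14.0%) in isotype replicate 1. Isotype replicate 2 had 16 reads of the 10 genes, 9 of them of Clec4n, and none of Chil3, which allows a share of up to 20.6%.

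**Figure D3:**
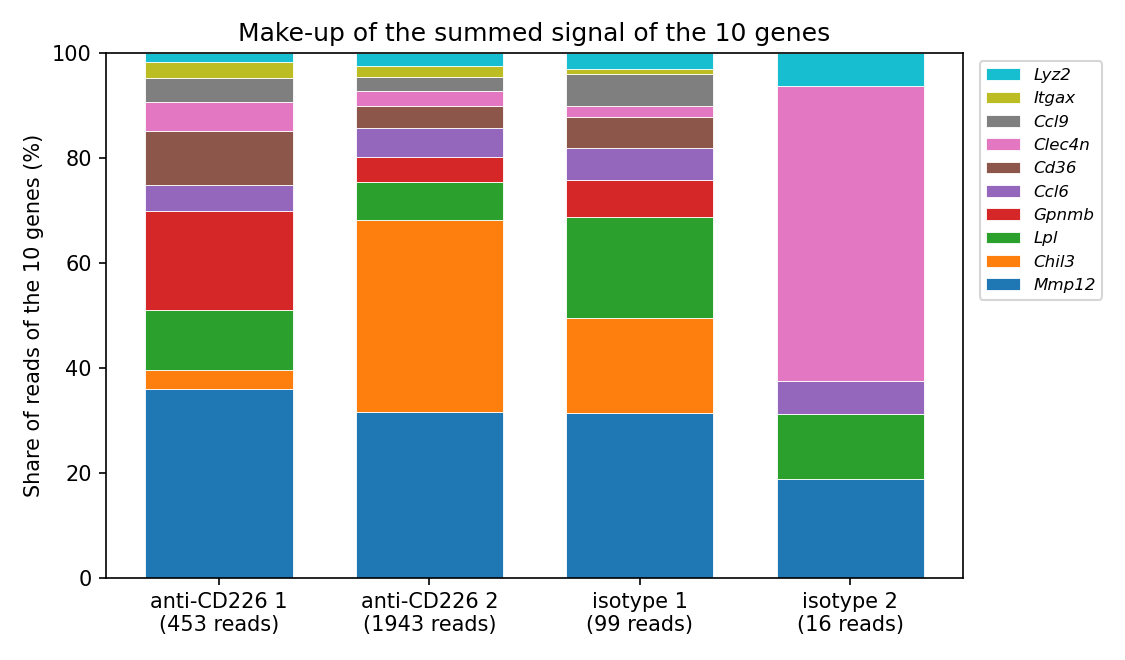
Stacked bars give the share (%) of each gene in the reads of the 10 genes, per library, with the number of reads under each bar. Mmp12 takes 31.3% to 36.0% in the 3 libraries with 99 reads or more, while Chil3 takes 3.53% and 36.6% in the anti-CD226 libraries.

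Other macrophage genes, which the choice of the 10 did not use, had list medians near 0, while those at low levels were highest in anti-CD226 replicate 2 in sum. A list of further alveolar macrophage genes had 24 names, of which 12, including Marco, Siglecf, Fabp4, Ear1, Ear2 and Mrc1, were not analysed here. The label of the group as alveolar macrophage transcripts therefore could not be checked on those defining markers, and the 10 genes are called here by name. Of the 12 with values, 6 reached a mean of 10, with 2 higher and 4 lower, 0 called, and a median log2 fold change of -0.06, against 0.01 over all genes tested. Without anti-CD226 replicate 1 the median was -0.0053, with 3 higher and 3 lower. Calls appeared in that fit, which takes the spread of the isotype group for the single anti-CD226 library. Their share is therefore not compared with that over all genes. The median turned to 0.37 with no filter on low genes. The 8 of the 12 with an isotype mean below 10 summed to 34.0 and 131 normalised reads in anti-CD226 libraries, against 22.1 and 21.6 in isotype libraries. Low isotype values picked these 8, so their sums are a description. Among them Plet1 and Ctsk, with isotype means of 6.30 and 1.71, reached the mean of 10 only through their anti-CD226 values. They are the 2 higher genes of the 6, so nothing is read from that count. Plet1 had 20.6 and 29.8 normalised reads in anti-CD226 libraries against 11.1 and 1.55 in isotype libraries, and the protease gene Ctsk had 5.15 and 43.0 against 1.11 and 2.32 (limma, adjusted p = 0.98 for each). Spp1, osteopontin, leaned the other way with 86.5 and 88.2 against 127 and 117 (limma, adjusted p = 0.98). Car4, a carbonic anhydrase of alveolar macrophages, had 0 and 12.1 against 1.11 and 0. Pparg, the nuclear receptor that drives alveolar macrophage development and is also used by ILC2s, had 2547 and 2804 against 2659 and 2693.

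A wider list of macrophage and monocyte genes had 44 names, of which 33 had values and 18 reached a mean of 10. Of these 18, 8 were higher and 10 lower, 0 were called, and the median log2 fold change was -0.01. The median was 0.08 and -0.06 without anti-CD226 replicates 1 and 2, and 0.16 and 0.24 without isotype replicates 1 and 2. Calls appeared in the fits without anti-CD226 replicate 1 or isotype replicate 1. These fits take the spread of the remaining group for the single library, so no share is compared with that over all genes. The replicate block called 1 of 18, beside 20 of 13010 over all genes. With low genes kept, the median was 0.29. The 16 genes with an isotype mean below 10, likewise picked by those values, summed to 81.3 and 222 normalised reads in anti-CD226 replicates 1 and 2, against 36.5 and 28.9 in isotype replicates 1 and 2. Over all 33 genes, most of whose signal came from genes high in every library, the sums were 27122 and 28287 against 27779 and 29086. Both anti-CD226 libraries stood above both isotype libraries in 5 of the 18, Clec7a, Cd68, Csf2ra, Csf2rb and Cebpb, beside 13.8% of all genes tested. They stood below both in 4 of the 18, Ctsd, Ctsb, Pirb and Psap, beside 13% of all genes tested. Clec7a, with an isotype mean of 3.32, reached the mean of 10 only through its anti-CD226 values, so nothing is read from its place here. Clec7a, the beta-glucan receptor dectin-1, had 14.4 and 67.2 normalised reads in anti-CD226 libraries against 6.63 and 0 in isotype libraries (limma, adjusted p = 0.98). The lysosomal glycoprotein gene Cd68 had 55.6 and 88.2 against 35.4 and 38.6 (limma, adjusted p = 0.98). Of the 33 genes, 1 and 0 were at 0 in anti-CD226 replicates 1 and 2, against 4 and 8 in isotype replicates 1 and 2.

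Of genes that define macrophages in general, Csf1r, Adgre1 and Apoe were low in all 4 libraries. Mpeg1, Msr1, Clec4e and Cybb were low elsewhere but higher in anti-CD226 replicate 2. Csf1r, the receptor for macrophage colony stimulating factor, had 1.03 and 2.62 in anti-CD226 libraries against 2.21 and 1.90 in isotype libraries. Adgre1, the F4/80 antigen, had 7.21 and 2.20 against 2.21 and 7.73, and Apoe had 11.3 and 13.2 against 14.4 and 10.8. The pore protein gene Mpeg1 had 4.12 and 16.5 against 0 and 0. The scavenger receptor gene Msr1 had 2.06 and 18.7 against 2.21 and 0, and the C-type lectin gene Clec4e had 1.03 and 12.1 against 2.21 and 0.773. Cybb, the catalytic chain of the phagocyte oxidase, chosen after its values were seen, had 0 and 37.5 against 1.11 and 0. Not all low genes of the wider list followed this pattern. Spi1 and Cd300a, also chosen after their values were seen, were higher in anti-CD226 replicate 1 than in replicate 2. Spi1 had 5.15 and 2.20 against 0 and 0.773, and Cd300a 5.15 and 1.10 against 0 and 0. At this depth these low values do not show whether Csf1r or Adgre1 differed between the groups.

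**Figure D4:**
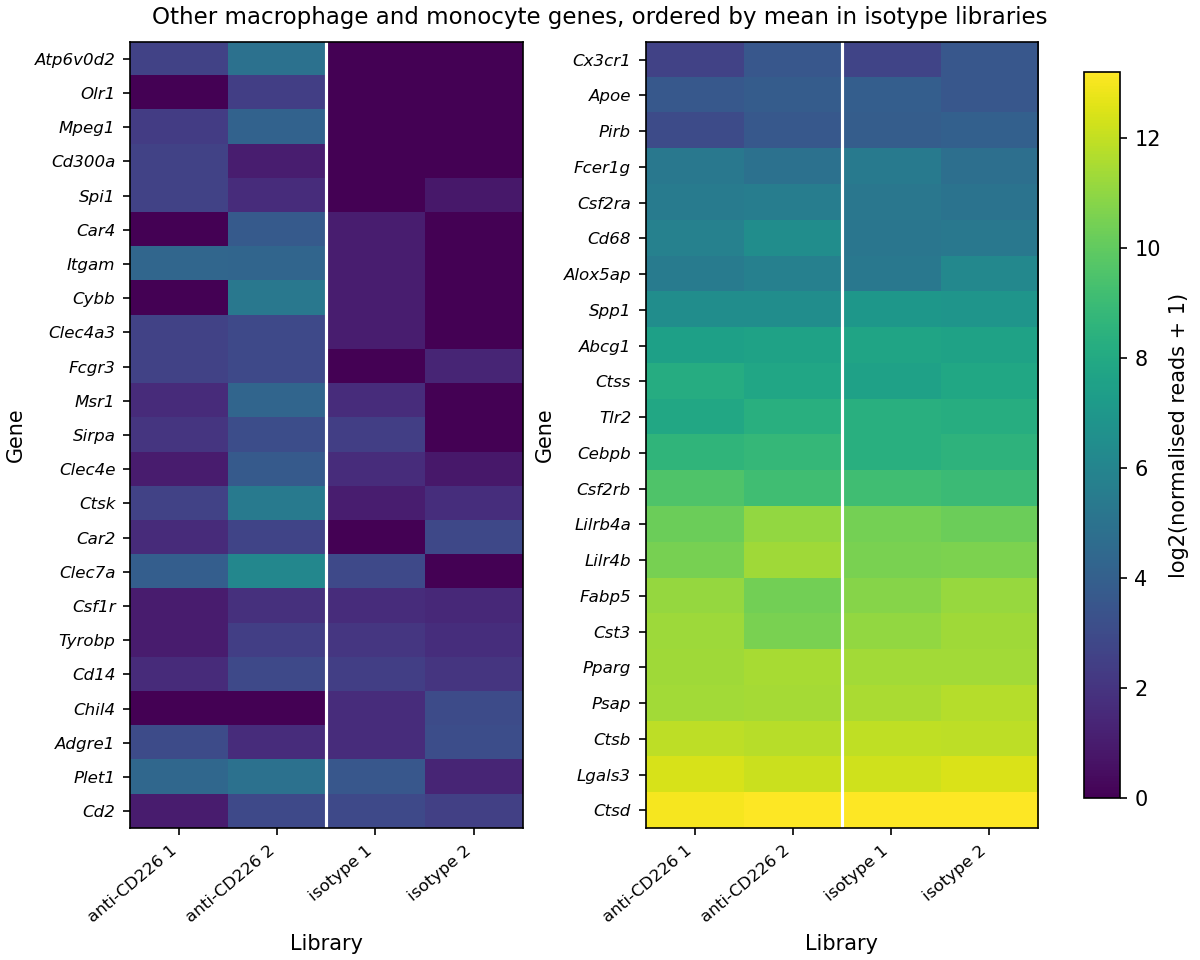
Colour gives log2(normalised reads + 1) for the 45 further macrophage and monocyte genes with values (rows, in order of their isotype mean) in the 4 libraries (columns). Mpeg1, in the left panel, is at 4.12 and 16.5 in anti-CD226 libraries against 0 and 0 in isotype libraries, while Ctsd and Lgals3, at the foot of the right panel, are high in every library.

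Lipid genes beyond Cd36 and Lpl showed no common shift. Of 40 further names for lipid uptake, storage and efflux, 35 had values and 31 reached a mean of 10, with 15 higher and 16 lower, 0 called, and a median log2 fold change of 0.00 to 2 decimals, -0.0020. Its sign changed under several alternatives, within a range of -0.06 to 0.08. The median was 0.08 and -0.06 without anti-CD226 replicates 1 and 2, and 0.03 without isotype replicate 1. Calls appeared in these fits, each with a single library in a group, so no share is compared with that over all genes. The replicate block called 1 of 31, beside 20 of 13010 over all genes. The 5 lipid genes with an isotype mean below 10, picked by those values, summed to 13.4 and 51.8 normalised reads in anti-CD226 libraries against 13.3 and 3.86 in isotype libraries. Both anti-CD226 libraries stood above both isotype libraries in 5 of the 31 and below both in 4, beside 13.8% and 13% of all genes. Lrp1 among these 5, with an isotype mean of 3.70, reached the mean of 10 only through its anti-CD226 values. Pla2g7, the plasma PAF acetylhydrolase that macrophages secrete, had the smallest p of the list, with 132 and 59.5 normalised reads in anti-CD226 replicates 1 and 2 against 28.7 and 20.1 in isotype replicates 1 and 2. It was higher in both anti-CD226 libraries, by a log2 fold change of 1.84 (SE 0.43, limma adjusted p = 0.98). Unlike the 10 genes, Pla2g7 was higher in anti-CD226 replicate 1 than in replicate 2. The lipoprotein receptor genes Vldlr and Lrp1 had 36.0 and 24.2 against 12.2 and 14.7, and 8.24 and 26.5 against 6.63 and 0.773.

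Among genes that handle lipid inside the cell, Plin2 and Fabp5 were abundant in every library. Plin2, which coats lipid droplets, had 7017 and 6689 normalised reads in anti-CD226 libraries against 7570 and 7443 in isotype libraries. Abcg1 and Abca1, which export cholesterol, had 179 and 192 against 209 and 196, and 17.5 and 78.3 against 37.6 and 20.9. Fabp5, a fatty acid carrier, had 2244 and 1363 against 1798 and 2265. None of these passed limma's adjusted p of 0.05, which does not show that they were equal.

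**Figure D5:**
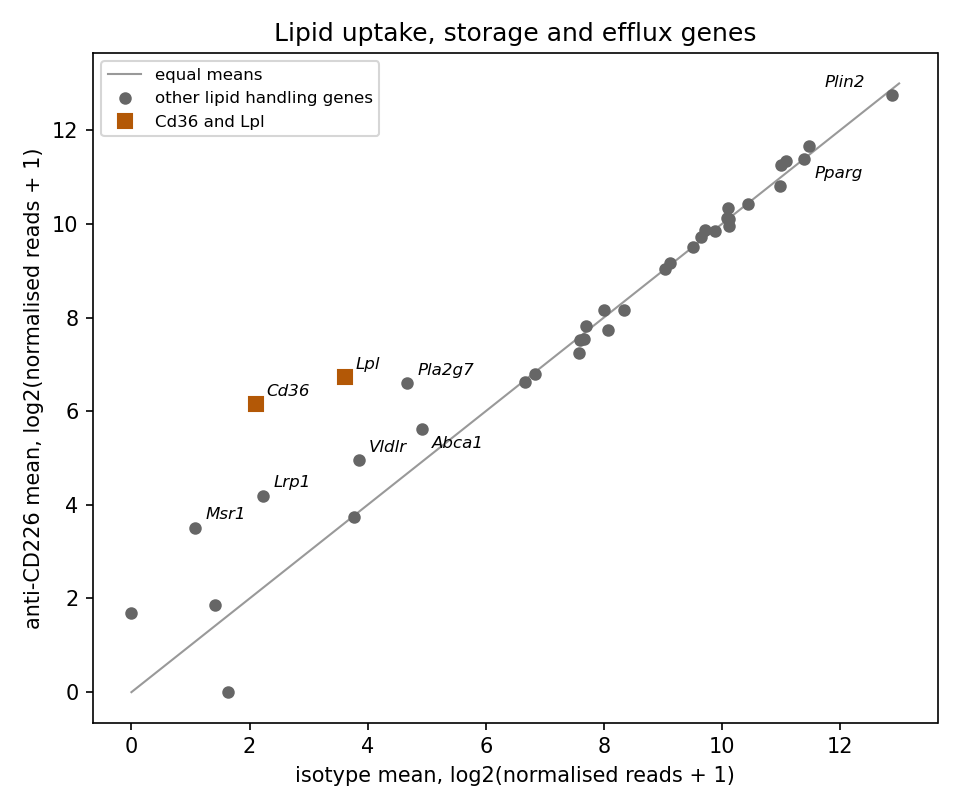
Group means on the log2(normalised reads + 1) scale for genes of lipid uptake, storage and efflux, anti-CD226 on the y axis and isotype on the x axis (n = 2 libraries each), with the line of equal means. Most of the 35 further genes lie near the line, while Cd36 and Lpl (squares) and Pla2g7 lie above it.

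The sums over whole lists for dendritic cells, eosinophils and epithelium were not ordered across libraries as the 10 genes were. Neither was the sum over the whole wider macrophage list, so whole-list sums do not set these cell types apart. The 15 genes of ILC2 identity and function had a median log2 fold change of 0.01, with 8 higher, 7 lower and 0 called. Both anti-CD226 libraries stood above both isotype libraries in 4 and below both in 3, beside 13.8% and 13% of all genes. Il13 and Rora had the smallest p. Il13 had 2725 and 921 normalised reads against 2773 and 3419, and Rora 3928 and 4865 against 3536 and 3386 (limma, adjusted p = 0.98 for each). Gata3, not among the first 4 by p, had 14910 and 17310 normalised reads in anti-CD226 libraries against 14198 and 13810 in isotype libraries. Of 17 further dendritic cell names 11 had values, summing to 2348 and 2387 in anti-CD226 libraries against 2580 and 2324 in isotype libraries. The 2 with an isotype mean below 10 summed to 10.3 and 28.7 against 7.74 and 10.8, also highest in anti-CD226 replicate 2. Of 10 further monocyte names 5 had values, with 3 higher, 2 lower and 0 called. Of 37 names from the gene families of the 10, 22 had values and 9 reached a mean of 10, with 5 higher, 4 lower and 0 called. Mmp13 among the 5, with an isotype mean of 2.21, reached it only through its anti-CD226 values. The 14 family genes with an isotype mean below 10 summed to 78.3 and 138 normalised reads in anti-CD226 libraries against 44.2 and 32.3 in isotype libraries, in the library order of the 10 genes, and Mmp14 among them had 7.21 and 4.41 against 8.84 and 6.95. Of 12 neutrophil names 4 had values, with Mmp9 at 3.09 and 0 against 2.21 and 0. Of 7 eosinophil names 2 had values, summing to 47.4 and 43.0 against 53.0 and 23.2. The 1 with an isotype mean below 10 had 4.12 and 0 against 7.74 and 0. Of 13 epithelial names 9 had values, summing to 278 and 276 against 254 and 345. The 5 with an isotype mean below 10 summed to 6.18 and 32.0 against 4.42 and 44.0. The part of other cell types in the values of the 10 genes was not tested.

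The genes most alike in pattern were found by Pearson's r over the 4 libraries with the mean log2(value + 1) of the 10 genes, among the 168 other genes whose mean reached 10 and whose SD on that scale reached 1. The first was Per2, a clock repressor, with r = 0.990 and 54.6 and 110 normalised reads in anti-CD226 libraries against 40.9 and 19.3 in isotype libraries. Clec7a followed with r = 0.989. The others were Ttn, Epb41l5, Lrrk2, Lrp1, Celsr2, Plet1, Slit2 and Gm49320, with r between 0.952 and 0.985. With 4 points that share their libraries, r is a description and carries no test. Apart from Per2 and Slit2, these genes had an isotype mean below 10 and passed the mean filter only through their anti-CD226 values. Nothing is read from their direction. Among the 10 most alike, 8 have a longest transcript above the median of 2848 bases, as do 6 of the 10 genes of the group. Of the 10 most alike, 7 have 5833 bases or more, while the 10 genes of the group run from 1229 to 4115 bases. Over the 12737 genes with a length, the deviation from the gene's mean had a Spearman's rho with length of -0.37 and 0.54 in anti-CD226 replicates 1 and 2, against -0.0022 and -0.49 in isotype replicates 1 and 2. The part of length in these patterns was not tested.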

How the data were processed

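RNA from 4 samples of cultured, sorted mouse lung ILC2s was made into cDNA with a low-input kit, per the labels' protocols. Reads were processed with Partek 10.0, STAR 2.7.8 and DESeq2 on build mm10, per the submitters' processing notes. Which tool counted, on which annotation and with what use of strand, is not given in the sources used here. For every gene the authors deposited its normalised signal in each library. Between 73.5% and 75.1% of a library's values from 0.5 to 1000 steps were whole multiples of 1 step, too few for a count model. Of the gene columns, 313 were checked against the unit and the rest taken to hold the same quantity. Depth is the library total over its step.

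Log2(value + 1) of all genes whose mean reached 10 was fitted in limma (version 3.58.1, R 4.3.3; trended variance, two-sided), with Benjamini-Hochberg adjustment and 2 residual and 5.81 prior degrees of freedom. The steps were tested on simulated data. With 2 libraries a group, the smallest two-sided p of an exact permutation test is 0.333. Intervals are exact (scipy 1.17.1). Positions and longest transcripts come from GENCODE M21 on GRCm38. The 10 genes, the further lists and the alternatives were chosen with earlier results of these data known. Genes named are the 10, others taken from the 4 that ranked first by p in a list, fixed macrophage, lipid and family genes whatever their result, and the 10 most alike in pattern. Genes named outside this rule are marked where their choice followed their values.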

Additional observations from a re-analysis of the deposited data

How the results depend on the processing

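The log2 fold changes of the 10 genes lay between 1.93 and 7.42 in 130 combinations of gene and alternative, and their sign, which the choice of the genes fixed, shows no stability. Another 10 combinations gave no value because the gene failed the filter, 7 with a mean of 50 or more and Ccl9, Itgax and Lyz2 without anti-CD226 replicate 2. In 1 combination, Itgax with a pseudocount of 5, the value moved by more than the spread between replicates, to 2.51. Leaving out a library could not do so, since with 2 libraries a group the shift cannot exceed this spread. For those combinations the measure therefore says nothing about stability. Chil3, for example, went from 4.68 to 7.42 and 1.93 without anti-CD226 replicates 1 and 2. The count of the 10 genes whose groups do not overlap was 9 under total, upper quartile, TMM and quantile scaling, and 9 to 10 when a library was left out. The choice of the genes fixed this count too, so it shows no stability. The share over all genes, 13.8% with all 4 libraries as reported, was not taken under these alternatives. With a library left out, fewer values need to stand apart. The ratio of the summed signal was between 21.2 and 21.4 under these scalings and 7.66 to 105 when a library was left out. Added after seeing the data, it was 17.7 without Chil3 and 14.7 without Chil3 and Mmp12. The change of Chil3 over Mmp12 between the anti-CD226 libraries was 11.2 with 1 added to each value and 11.7 after quantile normalisation.

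The count of genes past limma's adjusted p over the whole table was 0 under the scalings, pseudocounts, filters, variance settings and length correction. It was 13 to 1680 when a library was left out (1680 and 63 without anti-CD226 replicates 1 and 2, 13 and 15 without isotype replicates 1 and 2). Such a fit takes the spread of the remaining group for the single library. With the replicate number as a block it was 20. Deviations of same-numbered libraries from their group means had r = -0.24. With 2 libraries a group, crossed pairs must give the opposite value, 0.24. This r therefore does not show whether samples share a mouse, a culture or a batch. With crossed pairs as the block, added after seeing the data, the count was 61. The cause was not tested.

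The median of the further alveolar macrophage genes was 0.37 with no filter, -0.17 with a mean of 50 or more and 0.0051 with the length trend removed, and -0.071 to 0.0074 when a library was left out. For the wider macrophage list it was 0.29, -0.068 and 0.14 under the same 3 alternatives, and -0.056 to 0.24. The lipid list stayed between -0.06 and 0.08. Depth limits Itgax, Lyz2, Ccl6, Ccl9, Gpnmb, Cd36 and Clec4n, which had fewer than 10 reads in each isotype library.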

Other observations

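Some genes of related proteases and of lung epithelium, chosen after their values were seen, had most or all of their reads in 1 library. Mmp13, collagenase 3, had 0 and 38.6 normalised reads in anti-CD226 replicates 1 and 2, against 4.42 and 0 in isotype replicates 1 and 2. Mmp8, the neutrophil collagenase, had 23.7 and 0 in anti-CD226 replicates 1 and 2, against 0 and 0 in the isotype libraries. The epithelial genes Sftpc and Sftpa1 of surfactant proteins, Scgb1a1 of club cells and Krt8 were at 0 in both anti-CD226 libraries and in isotype replicate 1. In isotype replicate 2 they had 22.4, 10.04, 13.1 and 13.1 normalised reads. Atp6v0d2, a proton pump subunit of macrophages and osteoclasts, had 5.15 and 29.8 in anti-CD226 libraries, against 0 and 0 in isotype libraries.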
